A study of Mus musculus with 298 samples.

Results

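Neurons that were labelled day, active and cFOS+ were set against neurons that were labelled night, silent and cFOS-, so that the groups differed in all 3 labels that the study gave its cells. There were 51 day active cFOS+ cells and 34 night silent cFOS- cells, together 85 cells or 28.5% of all that were sequenced, chosen by the start of their titles, and 213 cells lay outside. All were neurons of the suprachiasmatic nucleus (SCN) of mice under a cycle of 12 h light and 12 h darkness, patched in slices. The slices were prepared near zeitgeber time 0 for the day and near zeitgeber time 12 for the night, where time 0 is lights on. The cytoplasm of each recorded neuron was drawn into the pipette, and the RNA of 1 cell made 1 library. One slice could give several neurons, and the labels name no animal, slice, strain, age or sex. Each group was therefore treated as 1 sample: no test was possible across animals, and every difference below is one between these collections of cells. Time of day, firing and the cFOS label differed together, so their parts in a difference cannot be told apart from this comparison alone.

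The SCN is the hypothalamic clock that sets daily rhythms of the body. In its neurons the activators CLOCK and BMAL1 bind E-box sequences and drive repressor and output genes, whose products later shut the activators off, so that transcripts of the targets rise and fall once a day. Firing of SCN neurons is high by day and low at night, and in neurons calcium entry during firing induces immediate early genes such as Fos, whose protein, cFOS, is widely used as a marker of recent activity. SCN neurons make GABA together with peptides such as vasoactive intestinal peptide (VIP) and vasopressin (AVP), which keep the network together and carry its output.

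The libraries were alike in depth. The total count ran from 3222140 to 12333843 reads, median 6232503, in day active cFOS+ cells, and from 3239417 to 25535298 reads, median 5981356, in night silent cFOS- cells. A median of 4434 genes (2367 to 8179) was detected in day active cFOS+ cells and of 4921 genes (2625 to 7405) in night silent cFOS- cells. Summed neuron markers reached at least 1000 CPM (counts per 1000000 counts of the cell) in all 51 and all 34 cells. The deepest night silent cFOS- cell alone held 10.9% of the counts of its group, and its effect is given where it moves a value by more than 1.5-fold. Night silent cFOS- cell 70 was left out, because its profile was nearly that of cell 71, which carries the label cFOS+ (Pearson correlation of log2 (CPM + 1) across genes 0.9995, against at most 0.689 among the 3570 pairs of the cells used).

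Group levels are CPM of the summed counts, and ratios are log2 of (CPM + 1) in day active cFOS+ over night silent cFOS- cells, so a positive ratio means a higher level in day active cFOS+ cells. Genes with at least 5 CPM in a group were called measured. Of 11767 measured genes, 48.8% were higher in day active cFOS+ cells, 17.1% were at least 2-fold higher and 16.3% at least 2-fold lower, with a median log2 ratio of -0.02. When the ratio of mean cell levels and the ratio with each group's top cell left out had to pass too, 11.1% were at least 2-fold higher and 9.99% at least 2-fold lower. At a minimum of 20 CPM, 13.4% were at least 2-fold higher and 13.3% at least 2-fold lower. A 2-fold difference of a single gene was thus common between these collections of cells in either direction, and the counts below are to be read against these shares. The 14 alternatives named below change the scaling, the pseudocount, the minimum level or the cells used. Some take cells with a lower or higher number in their titles. Others take cells with under 100 CPM of microglia markers, of astrocyte markers or of both Vip and Avp. For a single gene, a changed minimum leaves the ratio as it was, and a changed pseudocount cannot turn its direction.

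The promoters of 4 genes that the comparison turns on are shown first, because E-boxes mark the targets of CLOCK and BMAL1. They were picked from the windows in which a motif was found. Each is the RefSeq window from 250 bases before to 50 bases after a transcript start in GRCm38.p6, written 5′ to 3′ on the strand of the gene, with found motifs in capitals. Motifs were searched on both strands as the E-box CACGTG, the E-box variant CACGTT, the element AGGTCA, which nuclear receptors such as REV-ERB and ROR bind, and the AP-1 site TGACTCA, and none of those printed overlaps another. Ciart lies at chr3:95882179-95882478 on the minus strand, Per1 at chr11:69098699-69098998 on the plus strand, Nr1d1 at chr11:98775328-98775627 on the minus strand and Prok2 at chr6:99726343-99726642 on the minus strand.
Ciart: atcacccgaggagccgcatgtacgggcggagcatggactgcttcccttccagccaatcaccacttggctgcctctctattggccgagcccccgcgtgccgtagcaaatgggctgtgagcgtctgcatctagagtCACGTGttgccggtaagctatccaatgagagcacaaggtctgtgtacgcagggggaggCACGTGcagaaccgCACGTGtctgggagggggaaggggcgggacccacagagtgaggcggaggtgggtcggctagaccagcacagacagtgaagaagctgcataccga
Per1: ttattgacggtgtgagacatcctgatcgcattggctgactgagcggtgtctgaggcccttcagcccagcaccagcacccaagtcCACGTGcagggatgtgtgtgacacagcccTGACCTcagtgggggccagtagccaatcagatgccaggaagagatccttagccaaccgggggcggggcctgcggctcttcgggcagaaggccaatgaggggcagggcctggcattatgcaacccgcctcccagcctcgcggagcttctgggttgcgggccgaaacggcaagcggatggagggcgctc
Nr1d1: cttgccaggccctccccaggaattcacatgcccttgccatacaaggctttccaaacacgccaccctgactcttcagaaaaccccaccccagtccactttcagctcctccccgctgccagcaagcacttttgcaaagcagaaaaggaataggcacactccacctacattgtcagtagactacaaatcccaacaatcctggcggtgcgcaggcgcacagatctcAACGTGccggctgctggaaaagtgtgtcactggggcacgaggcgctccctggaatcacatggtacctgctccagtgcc
Prok2: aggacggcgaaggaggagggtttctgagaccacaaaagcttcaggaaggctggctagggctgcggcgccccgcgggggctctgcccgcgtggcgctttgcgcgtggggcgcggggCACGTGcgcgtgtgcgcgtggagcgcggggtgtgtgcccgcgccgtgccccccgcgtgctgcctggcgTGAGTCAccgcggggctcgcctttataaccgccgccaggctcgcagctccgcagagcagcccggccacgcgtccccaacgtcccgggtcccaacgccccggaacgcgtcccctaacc
Ciart held 3 E-boxes, which start 116, 58 and 44 bases before the transcript start. The Per1 window shown held an E-box and, on the opposite strand, the nuclear receptor element, while its other window in the table held none of the motifs. The window of Dbp held none either, nor did those of Fos, Vip and Rgs16. Prok2 held an E-box and an AP-1 site, and Nr1d1 the E-box variant, both of the last on the opposite strand. The D-box was searched as TTATGTAA and the cAMP response element as its full form TGACGTCA, and none of these windows held either. Shorter or imperfect forms of these elements were not searched, so such forms may be present. Of the 14 clock targets listed here 11 matched the RefSeq table, and 5 of them (45.5%) held a CACGTG in a window, as did 8.09% of all 27025 genes in the table and 11.9% of the 8915 measured genes in it. The list was drawn up from known E-box targets, so its higher share was built in and is no result of these cells. Over all 32851 windows, CACGTG was in 7.15%, CACGTT in 4.68%, AGGTCA in 16.3% and TGACTCA in 5.20%. A match describes these letters alone, and says nothing of binding in these cells.

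Clock genes known as targets of CLOCK and BMAL1 stood higher in day active cFOS+ cells. Of 14 such targets, 12 were higher and 6 at least 2-fold higher, none at least 2-fold lower, and their median log2 ratio was 0.79. Counted per cell, a median of 8 of the 14 genes (2 to 12) reached 10 CPM in day active cFOS+ cells, against 5.5 (0 to 11) in night silent cFOS- cells. Their summed level had a median of 2482 CPM (335.9 to 9961) in day active cFOS+ cells, against 1446 CPM (8.56 to 2886) in night silent cFOS- cells. The ranges of single cells overlapped for this sum and for every gene described here. The higher level of clock genes by day was known from all cells of the series when the list was drawn up, and is no independent support.

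Nr1d1 (chr11:98767932-98775333, minus strand, in GENCODE M21 on GRCm38, as for the gene positions below) encodes REV-ERB alpha, the nuclear receptor that represses Arntl. Its level ran from 0 to 4686 CPM with a median of 402.98 in day active cFOS+ cells, and from 0 to 1404 CPM with a median of 18.2 in night silent cFOS- cells. The cells thus overlapped, but the middle cell of the day group lay far above that of the night group. The group levels were 734.2 CPM (exact Poisson 95% interval 731.3 to 737.1) in day active cFOS+ and 263.6 CPM (261.6 to 265.7) in night silent cFOS- cells, a log2 ratio of 1.47, with 1.97 as the mean over cells and 1.68 without the top cells. At least 10 CPM was found in 74.5% of day active cFOS+ cells (exact Clopper-Pearson 95% interval 60.4 to 85.7%) and in 52.9% of night silent cFOS- cells (35.1 to 70.2%).

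Dbp, a transcription factor that carries clock output, ran from 0 to 1152 CPM (median 135) in day active cFOS+ cells and from 0 to 359 CPM (median 0.202) in night silent cFOS- cells. Most day cells held it and most night cells did not: 68.6% (54.1 to 80.9%) of day active cFOS+ and 38.2% (22.2 to 56.4%) of night silent cFOS- cells reached 10 CPM. Its log2 ratio was 1.47. Ciart (chr3:95878503-95882251), a repressor also known as CHRONO, had the largest ratio of the list at 3.01, with group levels of 173.4 CPM (172.04 to 174.87) in day active cFOS+ and 20.7 CPM (20.1 to 21.2) in night silent cFOS- cells. Single cells ran from 0 to 1600 CPM with a median of 0.134 in day active cFOS+ cells, and from 0 to 204.8 CPM with a median of 0 in night silent cFOS- cells. The majority of cells in both groups were near 0, and 43.1% (29.4 to 57.8%) of day active cFOS+ and 23.5% (10.7 to 41.2%) of night silent cFOS- cells reached 10 CPM.

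The period gene Per1 differed more in how many cells held it than in its summed level. It ran from 0 to 922 CPM (median 51.4) in day active cFOS+ cells and from 0 to 412.9 CPM (median 0.178) in night silent cFOS- cells. At least 10 CPM was found in 36 of 51 day active cFOS+ cells (70.6%, 56.2 to 82.5%) and in 9 of 34 night silent cFOS- cells (26.5%, 12.9 to 44.4%), the largest difference in share among the genes that met the naming rule. The group levels were 104 CPM in day active cFOS+ and 70.5 CPM in night silent cFOS- cells, a log2 ratio of 0.56, which was 1.72 as the mean over cells and 1.83 without the deepest night cell. It was 0.17 among lower and 4.31 among higher cell numbers. Per2, its close relative, was at 259 CPM in day active cFOS+ cells and 244.6 CPM in night silent cFOS- cells (log2 ratio 0.08, and -0.48 to 0.70 over the alternatives). Its medians were 82.3 CPM in day active cFOS+ and 16.1 CPM in night silent cFOS- cells.

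Among the other targets, Cry2, a cryptochrome that represses CLOCK and BMAL1, was at 535 CPM in day active cFOS+ cells and 296 CPM in night silent cFOS- cells, and 82.4% of the cells of either group reached 10 CPM. Bhlhe40, a repressor that competes for E-boxes, was at 79.8 CPM in day active cFOS+ and 25.6 CPM in night silent cFOS- cells (log2 ratio 1.60). The output factor Hlf was at 78.0 CPM in day active cFOS+ and 31.0 CPM in night silent cFOS- cells (1.30). Smaller ratios were found for Bhlhe41 (0.73), Per3 (0.57) and Cry1 (0.51). The exceptions were Tef at 84.6 CPM in day active cFOS+ and 100.8 CPM in night silent cFOS- cells and Nr1d2 at 94.96 CPM in day active cFOS+ and 108.3 CPM in night silent cFOS- cells, both lower in day active cFOS+ cells.

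**Figure D1:**
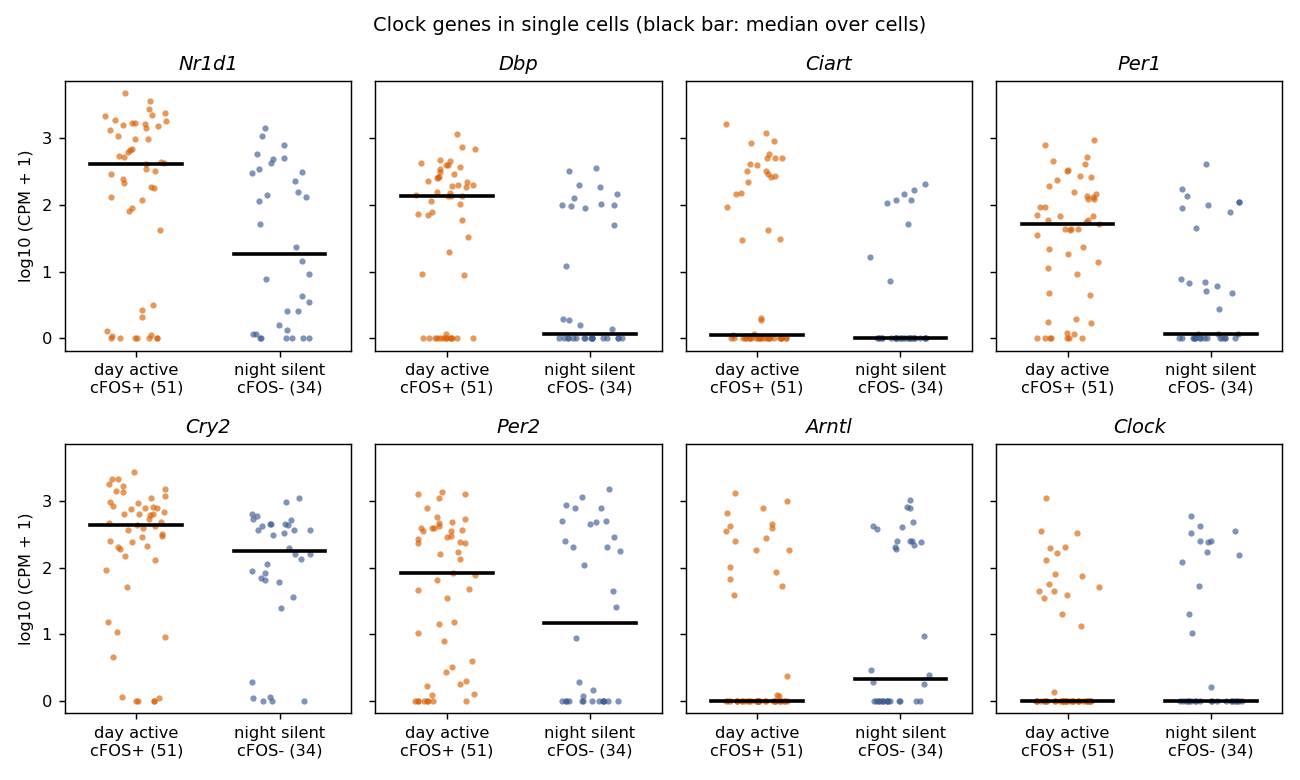
Single-cell levels of 8 clock genes, as log10 of (CPM + 1), in 51 day active cFOS+ cells (left) and 34 night silent cFOS- cells (right). Each point is 1 cell, spread sideways for view, and the black bar is the median. For Nr1d1 the medians are 402.98 CPM in day active cFOS+ and 18.2 CPM in night silent cFOS- cells, and for Per1 51.4 CPM in day active cFOS+ and 0.178 CPM in night silent cFOS- cells, while cells of both groups reach 0 in all 8 panels.

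The positive arm of the clock did not share that direction. Of 6 measured activators and ROR element regulators, 2 were higher in day active cFOS+ cells (median -0.30). Arntl, which encodes BMAL1, ran from 0 to 1293 CPM with a median of 0 in day active cFOS+ cells, and from 0 to 1041 CPM with a median of 1.18 in night silent cFOS- cells. Its group levels of 131 CPM in day active cFOS+ and 160 CPM in night silent cFOS- cells gave a log2 ratio of -0.29, which was 0.41 among higher cell numbers and 0.47 among cells with little astrocyte RNA. Clock was at 46.6 CPM in day active cFOS+ cells and 95.4 CPM in night silent cFOS- cells (-1.02). Rorb, a nuclear receptor that activates through ROR elements, was higher at 219 CPM in day active cFOS+ and 86.0 CPM in night silent cFOS- cells (1.34). It reached 10 CPM in 56.9% of day active cFOS+ and 38.2% of night silent cFOS- cells. Of 11 kinases and ubiquitin ligase genes that act on clock proteins, 6 were higher (median 0.01). Fbxl21, which encodes an F-box protein that targets cryptochromes, had a log2 ratio of 1.74, which was 0.0039 among higher and 3.01 among lower cell numbers. Csnk1d, a kinase of the period proteins, was at 60.1 CPM in day active cFOS+ cells and 176.4 CPM in night silent cFOS- cells (-1.54), but the ratio was -0.09 without the deepest night cell.

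Fos (chr12:85473890-85477273, plus strand) checks the cFOS label, and was higher in the cells labelled cFOS+. It ran from 0 to 11175 CPM with a median of 1674 in day active cFOS+ cells, and from 0 to 9228 CPM with a median of 889 in night silent cFOS- cells. The groups overlapped over nearly their whole range. The levels were 2632 CPM (2627 to 2638) in day active cFOS+ and 2081 CPM (2075 to 2087) in night silent cFOS- cells, a log2 ratio of 0.34, which was -0.13 among lower cell numbers. Fos RNA did not separate the labels: at least 10 CPM was held by 46 of 51 cells with the label cFOS+ and by 28 of 34 with the label cFOS-. The labels do not say by which means a cell was called cFOS+ or cFOS-. Where only the cFOS label differed, the cells labelled cFOS+ held less Fos, at 1507 CPM in night silent cFOS+ and 2081 CPM in night silent cFOS- cells, and at 2632 CPM in day active cFOS+ and 3102 CPM in day active cFOS- cells.

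The other immediate early genes were higher in day active cFOS+ cells for 24 of 34 measured members, with 11 at least 2-fold higher, 1 at least 2-fold lower and a median log2 ratio of 0.53. As the mean over cells the median was 0.91. Ppp1r15a, which encodes the stress-induced phosphatase subunit GADD34, ran from 0 to 3431 CPM with a median of 546 in day active cFOS+ cells, and from 0 to 1590 CPM with a median of 141 in night silent cFOS- cells. Its group levels were 686.3 CPM in day active cFOS+ and 267.1 CPM in night silent cFOS- cells (log2 ratio 1.36, and 1.19 to 1.91 over all alternatives). In all, 80.4% of day active cFOS+ and 58.8% of night silent cFOS- cells reached 10 CPM.

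The AP-1 genes were uneven. Junb was at 711 CPM in day active cFOS+ and 321 CPM in night silent cFOS- cells (1.15). Fosl2 was at 33.6 CPM in day active cFOS+ and 6.74 CPM in night silent cFOS- cells (2.16). Fosl1 was at 47.0 CPM in day active cFOS+ and 13.4 CPM in night silent cFOS- cells (1.73), while Fosb (0.26), Jund (-0.14) and Jun (-0.26) lay near 0. Without the deepest night cell, Fosl1 and Fosl2 had ratios of 2.93 and 3.09. Among the zinc finger and nuclear receptor factors, Egr1 was at 2529 CPM in day active cFOS+ and 1468 CPM in night silent cFOS- cells (0.78). Egr4 was at 323 CPM in day active cFOS+ and 153 CPM in night silent cFOS- cells (1.07), and Nr4a1 at 91.2 CPM in day active cFOS+ and 43.1 CPM in night silent cFOS- cells (1.06). Nr4a2 had no read in any night silent cFOS- cell, and reached 10 CPM in 4 of 51 day active cFOS+ cells.

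Crem, a cAMP-responsive transcription factor, was at 120 CPM in day active cFOS+ cells and 41.9 CPM in night silent cFOS- cells, with 10 CPM or more in 47.1% of day active cFOS+ and 32.4% of night silent cFOS- cells. Its ratio was -0.32 among cells with under 100 CPM of both Vip and Avp. Sik1, a kinase that damps CREB signalling, was at 45.7 CPM in day active cFOS+ and 23.5 CPM in night silent cFOS- cells. It reached 10 CPM in 54.9% (40.3 to 68.9%) of day active cFOS+ and 29.4% (15.1 to 47.5%) of night silent cFOS- cells. Vgf, a secreted granule protein, ran from 0.160 to 1626 CPM (median 284.3) in day active cFOS+ cells and from 0 to 698 CPM (median 124) in night silent cFOS- cells, a ratio of 1.17. The exceptions were led by Ier2, at 83.9 CPM in day active cFOS+ and 212 CPM in night silent cFOS- cells (-1.33).

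**Figure D2:**
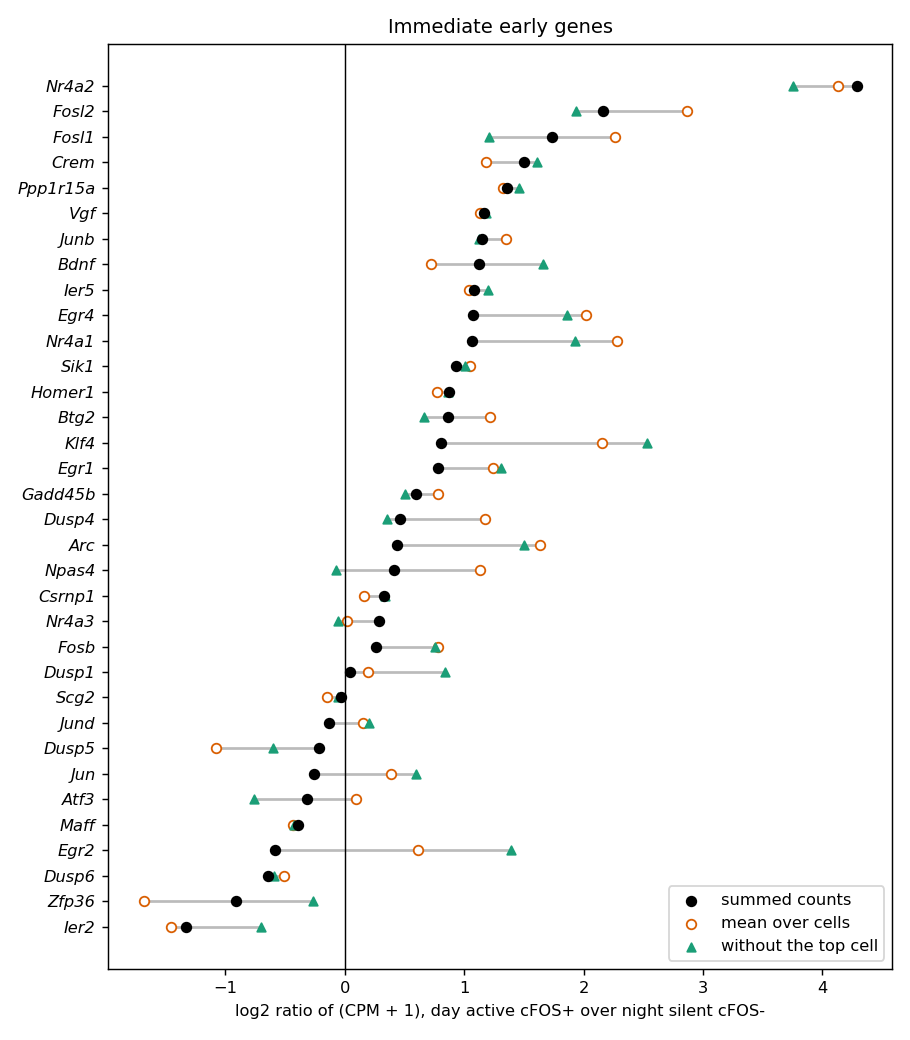
Log2 ratios of (CPM + 1), day active cFOS+ over night silent cFOS- cells, for 34 measured immediate early genes without Fos. Black points are summed counts, open circles the mean over cells and triangles the ratio with each top cell left out. Of the black points 24 lie right of 0, from Nr4a2, which has no read in the night group, down to Ier2 at -1.33.

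Peptide genes did not share a direction. Of 16 measured, 9 were at least 2-fold higher and 7 at least 2-fold lower in day active cFOS+ cells, and none lay between. Each is made by a subset of SCN neurons, so that shares of cells are given before levels. Vip reached 100 CPM in 17 of 51 day active cFOS+ cells (33.3%, 20.8 to 47.9%) and in 6 of 34 night silent cFOS- cells (17.6%, 6.76 to 34.5%). Its group levels were 4090 CPM in day active cFOS+ and 1537 CPM in night silent cFOS- cells (1.41). The highest cell was at 36050 CPM in day active cFOS+ and 52743 CPM in night silent cFOS- cells, and the ratio was 3.73 without those top cells but -0.35 among higher cell numbers. Avp differed in direction between its share of cells and its level: 25.5% (14.3 to 39.6%) of day active cFOS+ cells and 41.2% (24.6 to 59.3%) of night silent cFOS- cells reached 100 CPM. The group levels were nonetheless 3087 CPM in day active cFOS+ and 1259 CPM in night silent cFOS- cells (1.29). The highest cell was at 41823 CPM in day active cFOS+ and 6830 CPM in night silent cFOS- cells. Both peptides together reached 100 CPM in 0 of 51 day active cFOS+ cells (interval to 6.98%) and in 4 of 34 night silent cFOS- cells (11.8%, 3.30 to 27.5%). The intervals overlap in each of these comparisons of shares.

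Prok2, prokineticin 2, a secreted signal of SCN output, was higher in day active cFOS+ cells in every alternative. It ran from 0 to 1412 CPM in day active cFOS+ cells and from 0 to 121.8 CPM in night silent cFOS- cells, with medians of 0. At least 10 CPM was found in 16 of 51 day active cFOS+ cells (31.4%, 19.1 to 45.9%) and in 3 of 34 night silent cFOS- cells (8.82%, 1.86 to 23.7%). The group levels were 71.1 CPM (70.2 to 72.1) in day active cFOS+ and 6.071 CPM (5.759 to 6.395) in night silent cFOS- cells, a log2 ratio of 3.35 that stayed between 1.87 and 6.22 over all alternatives. Nms, neuromedin S, was at 739.3 CPM in day active cFOS+ and 239.02 CPM in night silent cFOS- cells (1.62), with 100 CPM or more in 50.98% of day active cFOS+ and 38.24% of night silent cFOS- cells. Pdyn, the precursor of dynorphin, reached 100 CPM in 6 of 51 day active cFOS+ cells and in 0 of 34 night silent cFOS- cells (interval to 10.3%).

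Trh, Gal, Penk and Cck, which encode thyrotropin-releasing hormone, galanin, enkephalin and cholecystokinin, were lower in day active cFOS+ cells. Trh was at 5.87 CPM in day active cFOS+ and 819 CPM in night silent cFOS- cells, but the night level came from 4 of 34 cells at 10 CPM or more, the highest of them at 11541 CPM. Gal was at 4.44 CPM in day active cFOS+ and 236.9 CPM in night silent cFOS- cells, from 1 of 51 day active cFOS+ and 4 of 34 night silent cFOS- cells, and its ratio turned to 2.67 among cells with little microglia RNA. Penk was at 112.6 CPM in day active cFOS+ and 316.9 CPM in night silent cFOS- cells. It reached 100 CPM in like shares, 19.6% of day active cFOS+ and 17.6% of night silent cFOS- cells. Cck was at 31.5 CPM in day active cFOS+ and 161 CPM in night silent cFOS- cells. The levels of Npy and Tac1 in day active cFOS+ cells rested on 1 cell each.

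**Figure D3:**
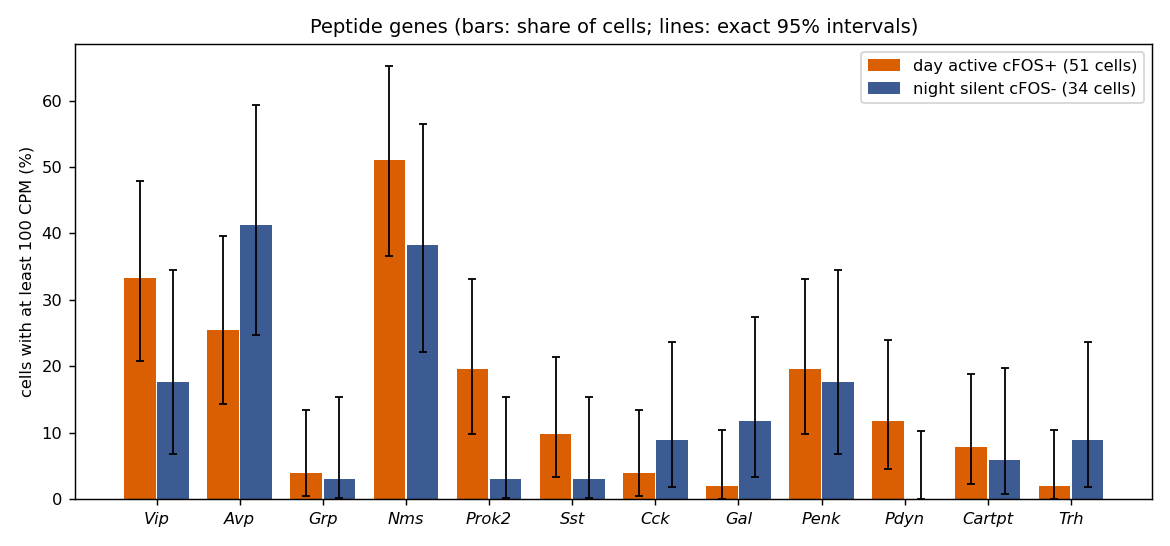
Share of cells with at least 100 CPM of 12 peptide genes in day active cFOS+ cells (left bar of each pair, 51 cells) and night silent cFOS- cells (right bar, 34 cells), with exact 95% intervals as lines. Vip is at 33.3% of day active cFOS+ and 17.6% of night silent cFOS- cells and Avp at 25.5% of day active cFOS+ and 41.2% of night silent cFOS- cells, and the intervals of the 2 groups overlap for all 12 genes.

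Receptors for these peptides were mostly lower in day active cFOS+ cells: 2 of 13 measured were higher, 8 were at least 2-fold lower, and the median log2 ratio was -1.08. The sign of the median was the same in all 14 alternatives, with 1 to 5 members higher. Vipr2 (chr12:116077726-116146261, plus strand), the VPAC2 receptor through which VIP acts on SCN neurons, ran from 0 to 2363 CPM with a median of 0 in day active cFOS+ cells, and from 0 to 2280 CPM with a median of 1.08 in night silent cFOS- cells. At least 10 CPM was found in 10 of 51 day active cFOS+ cells (19.6%, 9.82 to 33.1%) and in 16 of 34 night silent cFOS- cells (47.1%, 29.8 to 64.9%). The group levels were 84.4 CPM in day active cFOS+ and 305 CPM in night silent cFOS- cells (-1.84). Adcyap1r1, the PACAP receptor, was at 33.56 CPM in day active cFOS+ and 71.02 CPM in night silent cFOS- cells. The orphan receptor Gpr176 was at 22.5 CPM in day active cFOS+ and 48.7 CPM in night silent cFOS- cells. Prokr2, the receptor of PROK2, was at 181.4 CPM in day active cFOS+ and 265.2 CPM in night silent cFOS- cells, with 10 CPM or more in 17.6% of day active cFOS+ and 38.2% of night silent cFOS- cells. Npy1r, a receptor of neuropeptide Y, was among the 2 higher members at 20.4 CPM in day active cFOS+ and 4.16 CPM in night silent cFOS- cells, from 4 of 51 day active cFOS+ and 1 of 34 night silent cFOS- cells.

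Because the groups held different peptide cells, the comparison was repeated within them. Among cells with under 100 CPM of both Vip and Avp (21 day active cFOS+ and 18 night silent cFOS- cells), 10 of 14 clock targets and 26 of 33 immediate early genes were higher, with medians of 0.66 and 1.23. Of all 11607 genes measured in these cells, 49.5% were higher. Among cells with at least 100 CPM of Avp and under 100 CPM of Vip (13 day active cFOS+ and 10 night silent cFOS- cells), 12 of 14 clock targets were higher with a median of 1.54, but 13 of 30 immediate early genes with a median of -0.51. The share of all 10537 genes measured there was 49.15%. In these Avp cells Dbp was at 337.5 CPM in day active cFOS+ and 44.3 CPM in night silent cFOS- cells. The summed level of Fos was 731 CPM in day active cFOS+ and 1175 CPM in night silent cFOS- cells, where the highest cell was at 9228 CPM. The median of Fos went the other way, at 309.3 CPM in day active cFOS+ and 160.6 CPM in night silent cFOS- cells. Fos reached 10 CPM in 9 of 13 day active cFOS+ and 6 of 10 night silent cFOS- cells. Junb was at 42.0 CPM in day active cFOS+ and 150 CPM in night silent cFOS- cells. It reached 10 CPM in 4 of 13 day active cFOS+ and 2 of 10 night silent cFOS- cells. Only 2 night silent cFOS- cells held Vip without Avp, too few to describe. The summed level of Vipr2 was lower in both sets. It was at 213 CPM in day active cFOS+ and 641 CPM in night silent cFOS- cells with Avp, and at 9.736 CPM in day active cFOS+ and 121.8 CPM in night silent cFOS- cells with neither peptide. Shares with 10 CPM were 4 of 13 and 8 of 10 cells with Avp, but 3 of 21 and 3 of 18 cells with neither peptide. In the latter set the medians were 0, and the highest night silent cFOS- cell was at 1574 CPM.

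Signalling genes of the cAMP and calcium pathways were higher for 20 of 36 members (median 0.15), with 11 at least 2-fold higher and 4 at least 2-fold lower. Counted by the share of cells with 10 CPM, 14 members were higher and 18 lower. Rgs16, a regulator that shortens Gi signals and is known for a morning peak in SCN neurons, ran from 0 to 1351 CPM in day active cFOS+ cells and from 0 to 246.9 CPM in night silent cFOS- cells, with medians of 0. It reached 10 CPM in 35.3% of day active cFOS+ and 11.8% of night silent cFOS- cells, and its group levels were 114 CPM in day active cFOS+ and 20.9 CPM in night silent cFOS- cells (2.39). The phosphodiesterase Pde10a, which breaks down cyclic nucleotides, was at 284.1 CPM in day active cFOS+ and 48.73 CPM in night silent cFOS- cells (2.52). Its highest cells were at 4679.9 CPM in day active cFOS+ and 568.4 CPM in night silent cFOS- cells. In the opposite direction, the adenylyl cyclase Adcy2, which makes cAMP, ran from 0 to 681 CPM (median 0) in day active cFOS+ cells and from 0 to 4357 CPM (median 42.2) in night silent cFOS- cells. Its group levels were 79.97 CPM in day active cFOS+ and 357.1 CPM in night silent cFOS- cells (-2.14). The phosphodiesterase Pde7b was at 4.29 CPM in day active cFOS+ and 42.8 CPM in night silent cFOS- cells (-3.05). All 4 kept their direction in the 14 alternatives, including those that could not change it.

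Among genes of excitability, the sodium channel list stood a little higher in day active cFOS+ cells by summed counts. Of 11 members, 8 were higher, 4 at least 2-fold, and none at least 2-fold lower. The median of 0.31 kept its sign in all 14 alternatives, and was 0.14 as the mean over cells. By the share of cells with 10 CPM, 5 members were higher and 5 lower. Scn2a1, which encodes the channel NaV1.2, was at 127 CPM in day active cFOS+ and 42.6 CPM in night silent cFOS- cells (1.55). Nalcn, the leak channel that depolarizes SCN neurons, differed little at 145 CPM in day active cFOS+ and 125 CPM in night silent cFOS- cells. Its partners Unc79 and Unc80 went opposite ways, with ratios of 2.02 and -0.74.

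Potassium channels (12 of 23 higher, median 0.08) and calcium and HCN channels (9 of 23 higher, median -0.31) lay near the 48.8% of all genes or below it. Kcnk3, the two-pore leak channel TASK-1, was at 38.1 CPM in day active cFOS+ and 5.81 CPM in night silent cFOS- cells (2.52) with 10 CPM or more in 13 of 51 day active cFOS+ cells and 2 of 34 night silent cFOS- cells. Kcnma1, the BK channel, was at 51.8 CPM in day active cFOS+ and 40.0 CPM in night silent cFOS- cells (0.36).

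Receptors for fast transmitters showed no common direction by summed counts, with 9 of 18 GABA genes (median -0.09) and 10 of 21 glutamate receptor genes (median -0.10) higher in day active cFOS+ cells. The GABA median was -0.52 as the mean over cells and -0.63 without the top cells, and that of glutamate receptors -0.10 and -0.16. Counted by the share of cells with 10 CPM, 6 GABA genes were higher and 12 lower, and 7 glutamate receptor genes higher and 14 lower. Gabrg3 (chr7:56716465-57387188, minus strand), a gamma subunit of the GABA-A receptor, was the exception that reached the list of the 12 genes lowest in day active cFOS+ cells. It ran from 0 to 197.4 CPM (median 0) in day active cFOS+ cells and from 0 to 1704 CPM (median 4.22) in night silent cFOS- cells. At least 10 CPM was found in 13.7% (5.70 to 26.3%) of day active cFOS+ and 44.1% (27.2 to 62.1%) of night silent cFOS- cells. The levels were 13.1 CPM in day active cFOS+ and 165 CPM in night silent cFOS- cells (-3.56). Its relative Gabrg1 went the other way at 168.6 CPM in day active cFOS+ and 50.68 CPM in night silent cFOS- cells (1.71). Among glutamate receptors, Grm4 was at 2.02 CPM in day active cFOS+ and 27.3 CPM in night silent cFOS- cells. Gria3 was at 5.42 CPM in day active cFOS+ and 42.8 CPM in night silent cFOS- cells.

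Phosphate transport is named in the title of the study. Xpr1 (chr1:155275701-155417415, minus strand), the exporter of phosphate, ran from 0 to 444.1 CPM with a median of 0 in day active cFOS+ cells, and from 0 to 353.3 CPM with a median of 53.0 in night silent cFOS- cells. At least 10 CPM was found in 29.4% (17.5 to 43.8%) of day active cFOS+ and 58.8% (40.7 to 75.4%) of night silent cFOS- cells. The group levels were 54.3 CPM in day active cFOS+ and 102 CPM in night silent cFOS- cells (log2 ratio -0.90). The importer Slc20a2 was at 52.1 CPM in day active cFOS+ and 93.5 CPM in night silent cFOS- cells (-0.83, and -0.03 to -2.05 over the alternatives). The importer Slc20a1 was at 140 CPM in day active cFOS+ and 73.9 CPM in night silent cFOS- cells (0.91, and -0.01 among higher cell numbers). Its median cell was lower by day, at 7.30 CPM in day active cFOS+ and 20.1 CPM in night silent cFOS- cells. Of 12 measured genes of phosphate transport and inositol pyrophosphates, 5 were higher (median -0.32, of the same sign in 11 of the 14 alternatives). Ppip5k1 and Ppip5k2, kinases of inositol pyrophosphates, had ratios of 0.99 and 1.05, and that of Ppip5k2 turned negative in 2 alternatives.

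The secretory pathway was higher for 17 of 29 members with a median of 0.10. Cadps2, a priming factor of dense-core vesicles, reached 10 CPM in 28 of 51 day active cFOS+ cells (54.9%, 40.3 to 68.9%) and in 8 of 34 night silent cFOS- cells (23.5%, 10.7 to 41.2%). Its group levels were 285.3 CPM in day active cFOS+ and 91.63 CPM in night silent cFOS- cells (1.63). Pcsk1 and Pam, enzymes that cut and amidate peptide precursors, had ratios of 1.21 and 1.05. The granule protein Scg2 was nearly even at 6223 CPM in day active cFOS+ and 6360 CPM in night silent cFOS- cells. So was Cpe, a carboxypeptidase of peptide precursors, at 2664 CPM in day active cFOS+ and 2628 CPM in night silent cFOS- cells. Nuclear genes of oxidative phosphorylation were higher for 13 of 40 members with a median of -0.11, none of them 2-fold apart. The 10 measured mitochondrially encoded genes were all higher (median 0.60), but this count ran from 3 of 9 to 13 of 13 over the alternatives, and the median was 0.09 without the top cell of each gene. The median cell held 0.420% of its counts in mitochondrially encoded genes in day active cFOS+ and 0.544% in night silent cFOS- cells. Heat shock and cold-inducible genes were higher for 9 of 14 members (median 0.18). Cirbp, an RNA-binding protein induced by cold, was at 269.7 CPM in day active cFOS+ and 519.1 CPM in night silent cFOS- cells (-0.94). Its medians were 252.01 CPM in day active cFOS+ and 372.4 CPM in night silent cFOS- cells. Sodium pump genes (5 of 8 higher, median 0.13) and SCN transcription factors (7 of 15 higher, median -0.11) lay near the background.

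RNA of other cell types was present in both groups. The summed level of microglia markers was 100 CPM or more for 20 of 51 day active cFOS+ cells (39.2%, 25.8 to 53.9%) and for 14 of 34 night silent cFOS- cells (41.2%, 24.6 to 59.3%). The sums ran from 0 to 19119 CPM in day active cFOS+ and from 0 to 14097 CPM in night silent cFOS- cells. They reached 1000 CPM in 12 of 51 day active cFOS+ cells (23.5%, 12.8 to 37.5%) and in 5 of 34 night silent cFOS- cells (14.7%, 4.95 to 31.1%). Of 11 measured microglia markers, 6 were higher in day active cFOS+ cells by summed counts (median 0.15). The median was 0.51 as the mean over cells and 0.67 without the top cells. Counted by the share of cells with 10 CPM, 10 markers were higher and 1 lower. P2ry12 was at 78.9 CPM in day active cFOS+ and 26.4 CPM in night silent cFOS- cells, while Cx3cr1 was at 21.8 CPM in day active cFOS+ and 31.6 CPM in night silent cFOS- cells. Summed astrocyte markers reached 100 CPM in the same shares of cells, 39.2% of day active cFOS+ and 41.2% of night silent cFOS-, but 1000 CPM in 4 of 51 day active cFOS+ cells and 0 of 34 night silent cFOS- cells (interval to 10.3%). By summed counts, astrocyte markers were higher for 10 of 11 members with a median of 1.73, and Sox9 was lower (-2.66). The median cell went the other way, with a marker sum of 21.2 CPM in day active cFOS+ and 74.1 CPM in night silent cFOS- cells. By the share of cells with 10 CPM, 6 markers were higher and 5 lower in day active cFOS+ cells. Gja1 and Aldh1l1 were at no more than 0.0171 CPM in night silent cFOS- cells. Agt was at 84.7 CPM in day active cFOS+ and 10.1 CPM in night silent cFOS- cells. The defining gene Aqp4 was at 6.54 CPM in day active cFOS+ and 0.00428 CPM in night silent cFOS- cells. Inflammatory genes were higher for 5 of 14 members (median -0.98, and -0.01 without top cells), oligodendrocyte markers for 4 of 6, endothelial and ependymal markers for 2 of 2, and neuron markers for 9 of 13 (median 0.05). In cells with under 100 CPM of microglia markers (31 day active cFOS+ and 20 night silent cFOS- cells) 12 of 14 clock targets and 29 of 34 immediate early genes were higher. In cells with under 100 CPM of astrocyte markers (31 day active cFOS+ and 20 night silent cFOS- cells) these counts were 11 of 14 and 21 of 33. Of all measured genes, 49.1% were higher with the microglia limit and 50.4% with the astrocyte limit. The astrocyte limit and the value without the deepest night cell were chosen after the data had been seen.

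**Figure D4:**
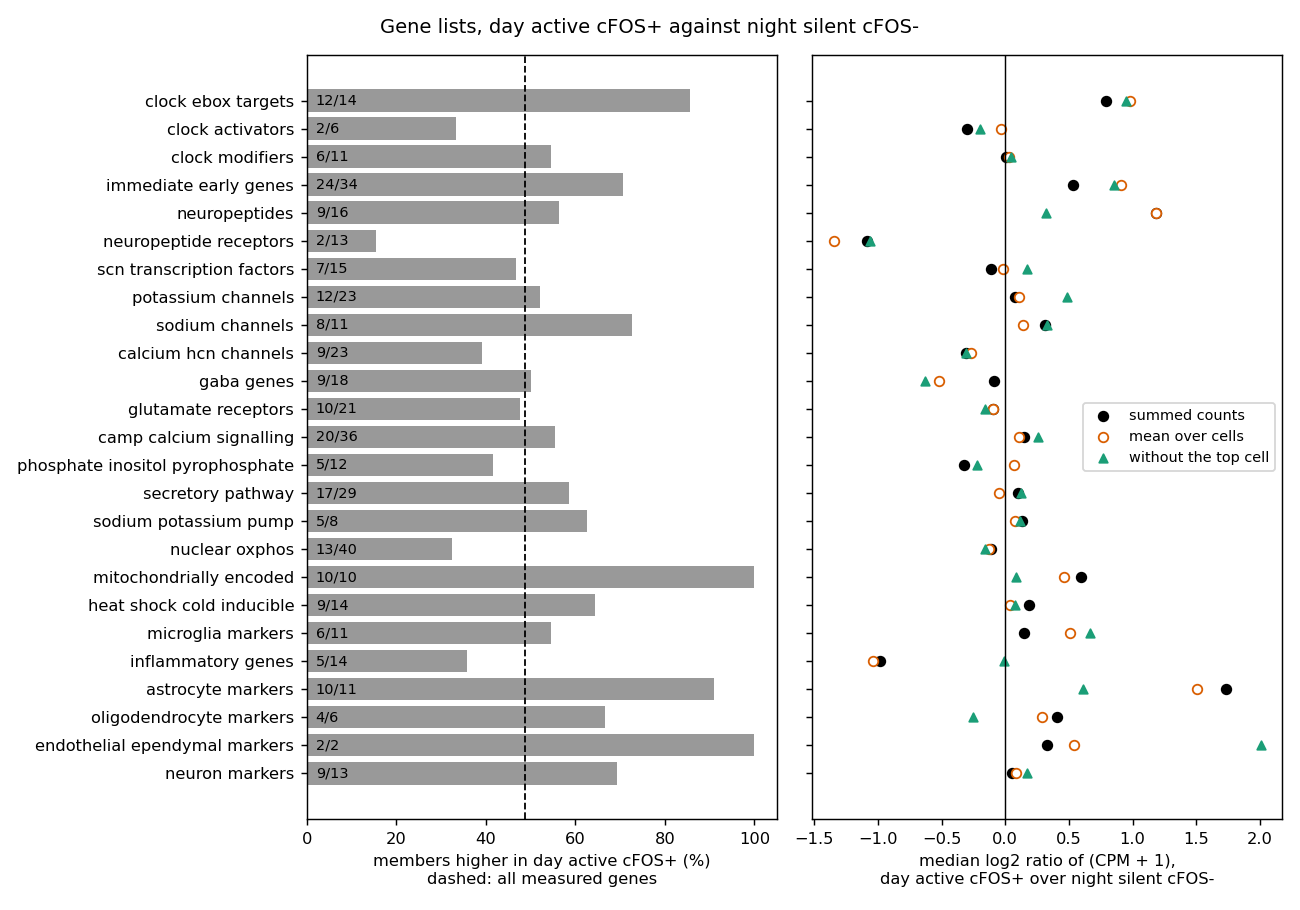
Gene lists compared between day active cFOS+ and night silent cFOS- cells. Left, the percent of measured members that were higher in day active cFOS+ cells, with their counts and, as a dashed line, the 48.8% of all measured genes. Right, the median log2 ratio of (CPM + 1) from summed counts, from mean cell levels and with each top cell left out. The clock E-box targets (12 of 14) and the peptide receptors (2 of 13) keep their side of 0 under all 3 measures, and for astrocyte markers the median is 0.61 without the top cells.

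By the naming rule, 3669 genes had the same direction in every measure, 1471 of them higher and 2198 lower in day active cFOS+ cells. The rule includes the share of cells with 10 CPM. Over all measured genes, the median difference of this share, day active cFOS+ minus night silent cFOS- cells, was -1.96 percentage points. Its part in the larger number of lower genes was not tested. The 12 highest were Slc30a4, Ccdc181, Creb3l1, Atf1, Prok2, Zfp91, Tmem35, Rap2a, Mier2, Kdm6b, Ciart and Mtus1, with log2 ratios from 2.71 (Mtus1) to 4.57 (Slc30a4). Slc30a4 encodes the zinc transporter ZnT4, and reached 10 CPM in 16 of 51 day active cFOS+ cells and 1 of 34 night silent cFOS- cells, with group levels of 50.98 CPM in day active cFOS+ and 1.184 CPM in night silent cFOS- cells. Creb3l1 and Atf1 encode transcription factors of the CREB and ATF family. Creb3l1 was at 98.7 CPM in day active cFOS+ and 8.39 CPM in night silent cFOS- cells, and its highest cells were at 1843 CPM in day active cFOS+ and 116 CPM in night silent cFOS- cells. Atf1 was at 70.9 CPM in day active cFOS+ and 5.52 CPM in night silent cFOS- cells, and its highest cells were at 1074 CPM in day active cFOS+ and 134 CPM in night silent cFOS- cells. Kdm6b, a histone H3 lysine demethylase, was the most widespread of the 12, with 10 CPM or more in 56.9% of day active cFOS+ and 23.5% of night silent cFOS- cells.

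Among the 12 lowest were Arhgap20, Gabrg3, Ppp6r1, Paqr3, Pde7b, Bmp2k, Zc3h10, Tbc1d8, Recql, Zfp444 and Prps1l3, with log2 ratios from -3.56 (Gabrg3) to -2.75 (Prps1l3). Arhgap20, a GTPase-activating protein, reached 10 CPM in 3 of 51 day active cFOS+ cells and 11 of 34 night silent cFOS- cells, at 4.14 CPM in day active cFOS+ and 56.0 CPM in night silent cFOS- cells. Ppp6r1, a regulatory subunit of protein phosphatase 6, was at 5.659 CPM in day active cFOS+ and 62.05 CPM in night silent cFOS- cells. Without the deepest night cell, Recql had a ratio of -2.38 in place of -3.42 and Zc3h10 of -2.58 in place of -3.19. Ranked by the share of cells with 10 CPM instead, Per1, Ppm1a, Ogg1, Stk40 and Sphk2 were most in favour of day active cFOS+ cells, and Anks3, Srp19, Elavl4, Tor1aip1 and Naa10 most against. Ppm1a, a protein phosphatase, was in 66.7% (52.1 to 79.2%) of day active cFOS+ and 23.5% (10.7 to 41.2%) of night silent cFOS- cells. Elavl4, the neuronal RNA-binding protein HuD, was in 33.3% (20.8 to 47.9%) of day active cFOS+ and 73.5% (55.6 to 87.1%) of night silent cFOS- cells. Its medians were 0 CPM in day active cFOS+ and 130 CPM in night silent cFOS- cells. These genes were picked as the extremes of 3669, and their sizes are a description of the ranking.

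The 6 groups that lie between differ from these in some of the labels. They share cells with the comparison above wherever one of its groups is named, so the values are given side by side. For clock targets, the median log2 ratio was 0.73 where time of day alone differed among silent cFOS- cells (day silent cFOS- over night silent cFOS-, 32 and 34 cells) and 0.78 among active cFOS+ cells (day over night, 51 and 41 cells). It was 0.28 and -0.03 where firing alone differed (night active cFOS- over night silent cFOS-, and day active cFOS+ over day silent cFOS+ cells). It was -0.38 and -0.14 where the cFOS label alone differed (night silent cFOS+ over night silent cFOS-, and day active cFOS+ over day active cFOS- cells). For immediate early genes the same 6 medians were 0.02 and 0.92 for time of day, 0.27 and 0.37 for firing, and -0.73 and -0.12 for the cFOS label. For peptide receptors they were -0.14 and -0.36 for time of day, 0.16 and 1.90 for firing, and -0.12 and -1.22 for the cFOS label. With all 3 labels together the medians of these lists were 0.79, 0.53 and -1.08.

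Nr1d1 was at 734, 843, 847 and 768 CPM in the 4 day groups (first the active cells, cFOS+ then cFOS-, then the silent cells, cFOS+ then cFOS-) and at 227, 332, 264.4 and 263.6 CPM in the 4 night groups in the same order. The day groups did not overlap with the night groups, nor did they for Dbp, Ciart, Prok2 or Rgs16. For other genes a single group stood apart: Gabrg3 was at 13.1 CPM in day active cFOS+ cells and between 88.9 and 168 CPM in the 7 other groups. Adcy2 was at 357.1 CPM in night silent cFOS- cells and between 50.04 and 188.3 CPM in the 7 others. Vipr2 was low in both day cFOS+ groups, at 84.4 and 50.4 CPM, and between 195.5 and 332.4 CPM in the other groups. Xpr1 was lowest in day active cFOS+ cells and highest, at 153 CPM, in day silent cFOS+ cells.

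**Figure D5:**
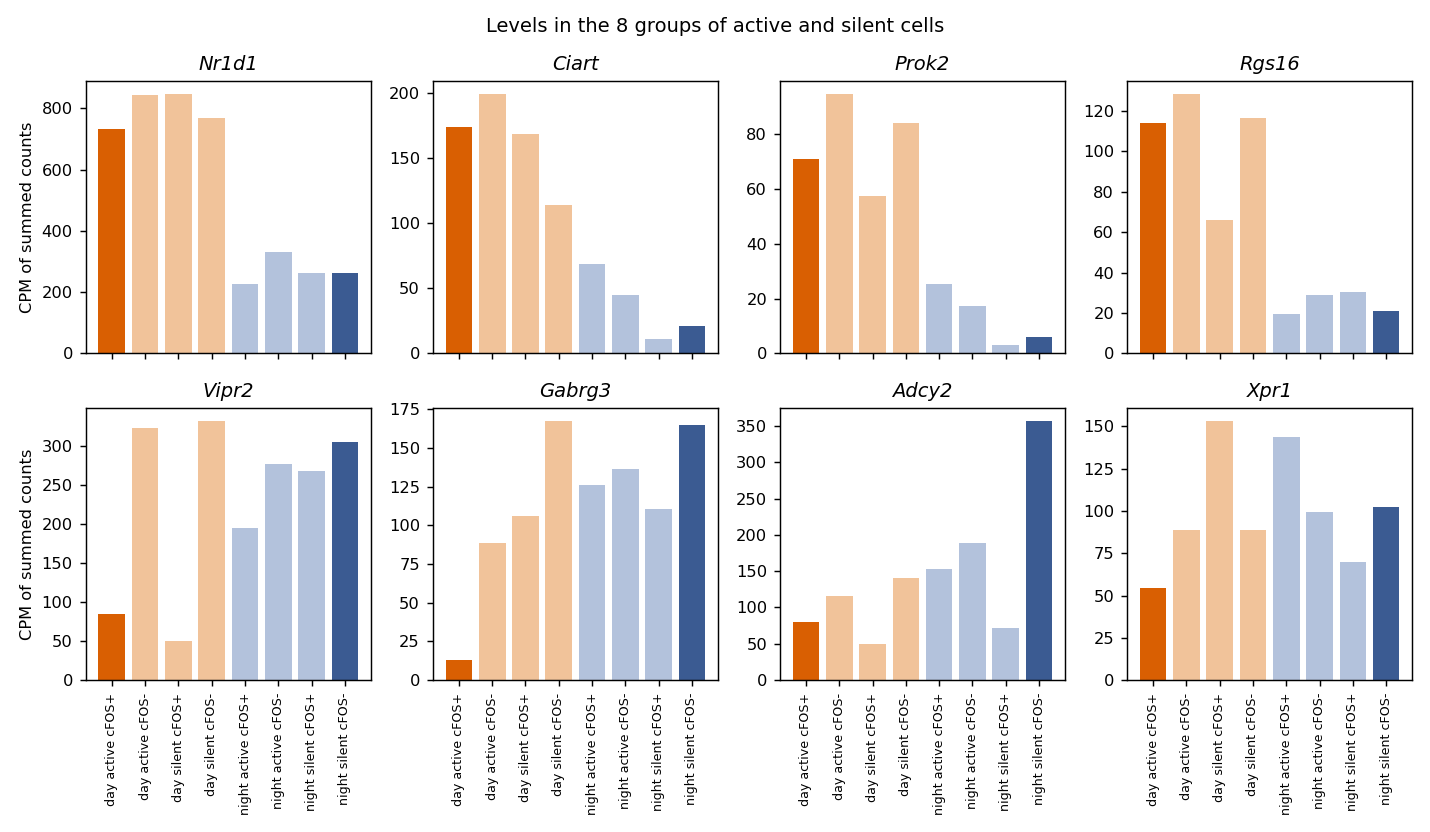
Level of 8 genes, as CPM of summed counts, in the 8 groups of active and silent cells, with day active cFOS+ at the left end, night silent cFOS- at the right end (dark bars), and the other 6 groups between them (pale bars). Bars have no error across animals, because each group is 1 sample. Nr1d1, Ciart, Prok2 and Rgs16 are higher in all 4 day groups than in all 4 night groups, while Gabrg3 is low in day active cFOS+ cells alone.

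The other 3 pairs of groups that differ in all 3 labels share no cell with this comparison or with each other. Clock targets were higher for 10 of 13 members in day active cFOS- over night silent cFOS+ cells (median 1.63), for 10 of 13 in day silent cFOS+ over night active cFOS- cells (0.95) and for 11 of 14 in day silent cFOS- over night active cFOS+ cells (0.51). Of all measured genes, 48.0%, 43.8% and 50.7% were higher in these pairs, in the same order, with medians of -0.05, -0.16 and 0.02. Immediate early genes were higher for 28 of 35 (1.16), 12 of 35 (-0.37) and 23 of 34 (0.30) in the same pairs. Peptide receptors were higher for 7 of 12 (0.20), 2 of 12 (-2.61) and 9 of 14 (0.75). Whether these groups came from the same animals is not given, and none of these differences was tested.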

How the data were processed

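Raw counts were deposited by the authors for 22800 gene symbols and 298 cells, per the file headers. A normalized signal, also deposited by the authors, was the raw count over a single factor for each cell (relative tolerance 1e-06 in all 298 cells). STAR, DESeq2 and GRCm38.p4 are listed in the submitters' processing notes without roles. The sources used here do not give the annotation, the use of strand or any molecular identifiers. Counts are therefore taken as reads, and reads of overlapping or near-identical genes may be split between symbols. Poisson intervals of levels cover the counting of reads only, and not the spread between cells or animals. Clopper-Pearson intervals of shares take each cell as independent, although cells may share a slice or an animal. Counts were summed per group and scaled to CPM, and thinned to 3000000 reads for an alternative, with python 3.11.15, numpy 2.4.6, pandas 2.3.3 and scipy 1.17.1. Figures were drawn with matplotlib 3.10.9, and the scripts were tested on simulated data. No cell filter beyond cell 70 and no doublet caller was used, since each library came from 1 pipette.

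Genes were named by a rule: at least 20 CPM in the higher group, at least 10 CPM in 25% of its cells, and 1 direction in the summed level, the mean over cells, the value without the top cells and the share of cells. Predicted genes and genes of ribosomal proteins or of the mitochondrial genome could not be named by it. Ranked by the smallest of the 3 ratios, the 12 highest and 12 lowest were taken, with 5 genes by share in each direction and up to 4 members of each of 25 lists. Other list members are named to show the spread of their list, and were chosen after their values were seen. The groups, lists and rule were chosen with earlier results of these data known. A few genes that the rule or the lists hold are not reported here.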

Additional observations from a re-analysis of the deposited data

How the results depend on the processing

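Of 120 named genes, 86 kept their direction in all 14 alternatives, as did 72 of the 89 that were at least 2-fold apart. These counts include alternatives that could not change a direction, namely the changed minimum levels and the changed pseudocount. For genes taken by the rule or from a list, the mean over cells and the value without the top cells kept it by selection. Clock targets were higher for 10 to 14 members (medians 0.66 to 1.28) and immediate early genes for 20 to 29 (0.25 to 1.23). The share of all measured genes that were higher ran from 48.0% to 53.1% over the alternatives. The number of genes at least 2-fold higher was 1171 at a minimum of 20 CPM and 3140 among higher cell numbers (28 day active cFOS+ and 14 night silent cFOS- cells), and 1168 genes were at least 2-fold lower at 20 CPM. The microglia marker count was 10 without the top cell of each gene and with the deposited size factors, 11 among higher cell numbers and among cells without Vip and Avp, and 0 without cells with microglia markers. Clock targets, clock modifiers, immediate early genes, peptide receptors, sodium channels and the cAMP and calcium list kept the sign of their median in all 14 alternatives, and every other list changed it in at least 1. Among lists with at least 2 in 3 members on one side, these counts changed side: oligodendrocyte markers to 1 without top cells and 2 among higher cell numbers and without cells with astrocyte markers; neuron markers to 6 among lower cell numbers; clock activators to 4 among higher cell numbers; oxidative phosphorylation genes to 21 without cells with microglia markers; mitochondrially encoded genes to 3 without Vip and Avp cells and 4 without cells with astrocyte markers; astrocyte markers to 3 and 0 and endothelial markers to 0 and 0 in the same settings. Among cells without Vip and Avp, counts of lists nearer an even split were 1 of 8 for the sodium pump, 5 of 14 for heat shock genes, 14 of 29 for the secretory pathway, 11 of 16 for SCN transcription factors and 13 of 23 for calcium and HCN channels, and inflammatory genes were higher for 7 of 8. Single genes that changed sign were, without cells with microglia markers, Csnk1d (1.74), Gal (2.67), Gpr176 (0.32), Kcnb2 (-2.52), Ppip5k2 (-0.26), Tmem119 (-0.0051), P2ry12 (-0.0051), C1qc (-0.24), Cd14 (0.0096) and Ntsr2 (-1.45). Among cells without Vip and Avp they were Csnk1d (0.45), Crem (-0.32), Pam (-0.17), Ntsr2 (-2.90) and Avp (-2.21, on which these cells were chosen). Among higher cell numbers they were Gpr176 (0.23), Ppip5k2 (-0.16) and Vip (-0.35), among lower ones Socs3 (-0.32), and without cells with astrocyte markers Ryr3 (-0.15) and Sox9 (0.12). Apart from cells chosen by the marker itself, the cause was not tested. Cell numbers come from the sample titles, which do not say what they order. No paired analysis was possible because each cell number belongs to 1 cell and no number is shared between the groups. Leaving out a replicate was not possible, since each group is 1 sample. Depth limits genes near 0: 3 counts over a group equal 0.00901 CPM in day active cFOS+ and 0.0128 CPM in night silent cFOS- cells.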
